A study of Mus musculus with 13 samples.

Results

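The 43 genes described here encode the contractile proteins of skeletal muscle, the proteins that couple its excitation to contraction, and the factors that direct its formation. They were taken by symbol from the 23364 genes measured in each of 13 samples of mouse submandibular gland, and every one of the 43 was found. RNA was sequenced from whole dissected glands of C57BL/6 mice at the embryonic days E14.5, E16.5 and E18.5, at postnatal day 5 (P5), and 4 and 12 weeks of age (4wk and 12wk), with 3 samples at E14.5 and 2 at each other time point. All animals were of the same strain, and the labels name neither a transgene nor a treatment. Glands of 3 animals were pooled per sample at E14.5 and those of 2 at E16.5 and at E18.5, the sex of embryos and P5 pups was not ascertained, and the adults were males. The genes were assembled with their levels in these samples known, as transcripts of muscle adjoining the dissected gland, so their levels over time are a description. Where a gene is said to pass or not to pass a threshold, this sets its difference against the spread of the samples in the fit and is not independent evidence for a gene chosen on the same values.

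The submandibular gland secretes saliva and holds no striated muscle of its own, but it lies in the neck against the mylohyoid and digastric muscles. In a muscle fibre, myosin thick filaments pull on actin thin filaments, calcium bound to troponin permits the pull, and Z-disc proteins anchor the thin filaments. Most of these parts exist as several isoforms: embryonic and perinatal forms are made in developing fibres and give way to slow or fast adult forms as fibres mature, while Myf5, Myod1, Myog and Myf6 are the transcription factors that commit and differentiate muscle cells.

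The values are FPKM, which are fragments per kilobase of transcript scaled to the mapped reads of a sample, and a difference between time points is one of means of log2(FPKM + 1) with its standard error (SE) from a fit of all 13 samples. The number of reads on genes, recovered from the steps between low FPKM values, was between 5817293 in 4wk replicate 1 and 48314162 in P5 replicate 1, and the level of a gene at 0 reads is known only to lie below that of about 3 reads, counting error alone considered. Of 17 markers of salivary epithelium, at least 15 reached 1 FPKM in every sample except E14.5 replicate 1, where 12 did and their sum was 416 FPKM against 1209 and 1105 FPKM in its replicates. The secretory gene Smgc was at 0.0523 to 6.23 FPKM at E14.5, at 42935 and 47357 FPKM at P5, and at 0.154 and 58.6 FPKM at 12wk. Cardiomyocytes share Actc1, Tnnt2, Tnnc1 and Myh7 with skeletal muscle, but of 10 markers that set them apart only Tnni3, up to 5.27 FPKM at P5, and Nppa, at 1.15 FPKM in E18.5 replicate 2, reached 1 FPKM, and the myosin Myh6 did not exceed 0.222 FPKM in any sample. At every time point except 12wk, some muscle genes differed by at least 1 on the log2 scale between replicates. They were higher in E14.5 replicate 1, E16.5 replicate 2, E18.5 replicate 2, P5 replicate 1 and 4wk replicate 1. Where a time point has 2 samples, it is not known which of them departs from it. E14.5 replicate 1 also held the cartilage genes Col2a1 at 142 FPKM and Matn1 at 23.8 FPKM, against at most 4.04 and 0.0591 FPKM in the other 12 samples. Col9a1, the cartilage gene with the highest mean, differed less, at 89.6 FPKM there against 58.1 and 59.8 FPKM in its replicates. The 4wk replicate 1 library also held the brown fat genes Ucp1 at 106 FPKM and Cidea at 80.8 FPKM, which were listed at 0 in 4wk replicate 2. In that library 3441 of 17130 genes were at 0 reads and only 196 at 1 read, against 2244 and 550 in 4wk replicate 2. E18.5 replicate 2 had 711 genes at 0 reads and 158 at 1 read, against 494 and 310 in its replicate, which had fewer reads in all. In 4wk replicate 1 and E18.5 replicate 2 a value of 0 may therefore not bound the level of a gene at 3 reads. The part of these other tissues in the muscle values was not tested.

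Promoter sequences are shown for 4 of the genes, because muscle genes are known to be switched on through short motifs close to their start, bound by the MyoD family (E-box), MEF2, SRF (CArG box) and TEAD factors (MCAT). RefSeq promoters of build GRCm38.p6 were given for 34 of the 43, and the 250 bases before the start were searched on both strands. The E-box CAGCTG was present in 16 of the 34 (47.1%) and in 14.7% of all 27025 genes with a promoter, and the E-box CACCTG in 9 (26.5%) and in 19.4% of all. A MEF2 motif was present in 4 (11.8%, against 3.42%), a CArG box in 4 (11.8%, against 1.62%) and the MCAT motif CATTCC in 9 (26.5%, against 14.4%). The printed windows are those of 4 genes among those that were lower at E18.5 and have a single window, with Myot left out beforehand. They have the most kinds of motif, with ties settled by the number of matches and then by alphabet. Capitals mark the motifs, read 5′ to 3′ on the strand of the gene, so that CAGGTG is CACCTG and GGAATG is CATTCC on the opposite strand. The windows are chr8:123894776-123895025 for Acta1, chr1:172219896-172220145 for Casq1, chr1:66945057-66945306 for Myl1 and chr2:76982548-76982797 for Ttn, all on the minus strand. In Acta1 the E-box, the CArG box and the MCAT motif began 221, 73 and 46 bases before the start, in Casq1 the E-boxes 195 and 67, in Myl1 the E-box and the MCAT motif 224 and 80, and in Ttn the MEF2 motif and the E-box 166 and 138. A match is a description of the sequence and not a bound site.
Acta1: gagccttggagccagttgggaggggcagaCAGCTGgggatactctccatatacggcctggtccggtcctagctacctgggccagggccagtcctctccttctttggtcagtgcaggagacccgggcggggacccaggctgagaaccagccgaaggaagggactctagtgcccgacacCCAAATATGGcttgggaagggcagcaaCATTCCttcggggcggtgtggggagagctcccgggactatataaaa
Casq1: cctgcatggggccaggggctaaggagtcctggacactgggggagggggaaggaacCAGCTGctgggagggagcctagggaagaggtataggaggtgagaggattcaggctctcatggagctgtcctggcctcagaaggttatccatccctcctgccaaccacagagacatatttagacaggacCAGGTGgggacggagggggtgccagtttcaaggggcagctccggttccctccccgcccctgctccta
Myl1: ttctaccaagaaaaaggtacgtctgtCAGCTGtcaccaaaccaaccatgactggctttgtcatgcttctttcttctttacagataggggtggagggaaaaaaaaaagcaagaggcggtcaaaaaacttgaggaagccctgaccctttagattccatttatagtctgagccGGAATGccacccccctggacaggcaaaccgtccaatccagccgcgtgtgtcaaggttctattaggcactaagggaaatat
Ttn: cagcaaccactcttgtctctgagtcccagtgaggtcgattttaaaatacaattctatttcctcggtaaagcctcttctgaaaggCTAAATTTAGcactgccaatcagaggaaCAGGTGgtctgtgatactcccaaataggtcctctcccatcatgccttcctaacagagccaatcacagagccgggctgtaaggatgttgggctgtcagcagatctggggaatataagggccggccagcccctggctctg

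The summed level of the 43 genes was highest at E16.5 and far lower at E18.5. It was 1431, 577 and 431 FPKM in the E14.5 samples, 1864 and 2433 FPKM in the E16.5 samples, and 27.1 and 99.2 FPKM in the E18.5 samples. After birth it was 42.5 and 24.1 FPKM at P5, 74.8 and 6.37 FPKM at 4wk, and 9.05 and 7.07 FPKM at 12wk. Every E16.5 sample thus lay above every other sample, and every E14.5 sample above all 8 later ones. The mean at E16.5 was 34.0 times that at E18.5, and 30.0 times after rescaling by median-of-ratios factors. In percent of all FPKM of a sample, the genes took 0.0930 to 0.526 at E14.5 and E16.5 and at most 0.0177 from E18.5 on. In these whole-gland samples, fewer muscle cells and less of these RNAs per cell cannot be told apart. Smooth muscle and myoepithelial genes, which serve the contractile cells of vessels and of the gland itself, took another course. Their sum over 12 genes was 93.1 to 122 FPKM at E14.5, 237 and 303 FPKM at E16.5, 343 and 364 FPKM at E18.5, and between 282 and 658 FPKM afterwards. From E16.5 to E18.5 the sum over the 17 salivary epithelium markers went from 4726 and 5366 FPKM to 36482 and 45523 FPKM. Smgc alone went from 1351 and 2109 FPKM to 17748 and 19478 FPKM. By the thresholds given below, 5 of the 17 were higher and 0 lower, where 159 of all 14650 tested genes were higher. Their median difference was 0.67 on the log2 scale. The sum over 8 adipocyte markers went from 154 and 96.8 FPKM to 408 and 238 FPKM, and Fabp4 alone from 153 and 95.4 FPKM to 356 and 223 FPKM. Such sums follow their highest genes and are not shares of cells. The part of these other cell types in the lower muscle values was not tested.

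**Figure D1:**
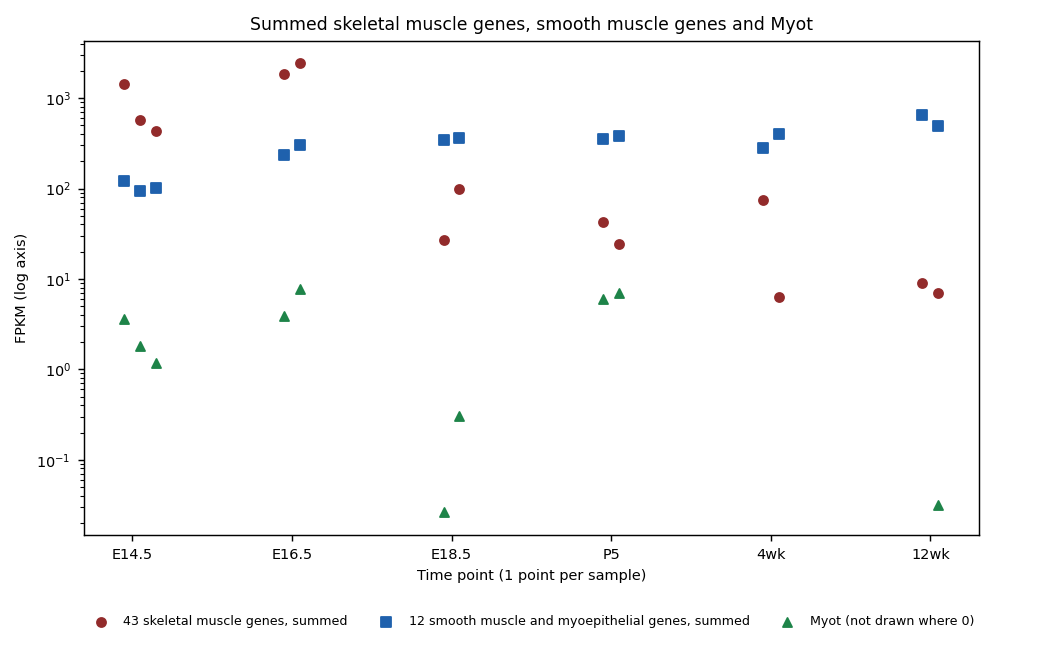
Summed FPKM on a log axis for each sample (1 point per sample, replicates side by side) at the 6 time points, for the 43 skeletal muscle genes (circles), 12 smooth muscle and myoepithelial genes (squares) and Myot alone (triangles, absent where the value is 0). The skeletal muscle sum drops from 1864 and 2433 FPKM at E16.5 to 27.1 and 99.2 FPKM at E18.5 while the smooth muscle sum does not, and Myot stands at 6.00 and 6.93 FPKM at P5.

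Of the 43 genes, 38 reached 1 FPKM in at least 1 sample and entered the fit, while Myh1, Myh2, Mybpc2, Chrne and Pax3 stayed below this in all samples. A gene was counted as changed when it differed by at least 1 on the log2 scale with a limma adjusted p below 0.1. Between E14.5 and E16.5, 12 of the 38 were higher and 0 lower, where 4.17% of all 14650 tested genes were higher. Between E16.5 and E18.5, 30 were lower and 0 higher, where 1.85% of all genes were lower. Between E18.5 and P5, 1 was higher, where 2.07% of all were higher, and between P5 and 4wk 2 were lower, where 22.1% of all were lower. Between 4wk and 12wk 0 of the 38 changed by limma, none of them had an unadjusted p below 0.05, and 5.15% of all genes changed. Since a gene that entered the fit through a high embryonic value had to be lower elsewhere, and since the genes were assembled for it, nothing is read from these counts beyond their size. The median difference of the 38 between E16.5 and E18.5 was -2.78 on the log2 scale, beside -0.14 for all tested genes.

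**Figure D2:**
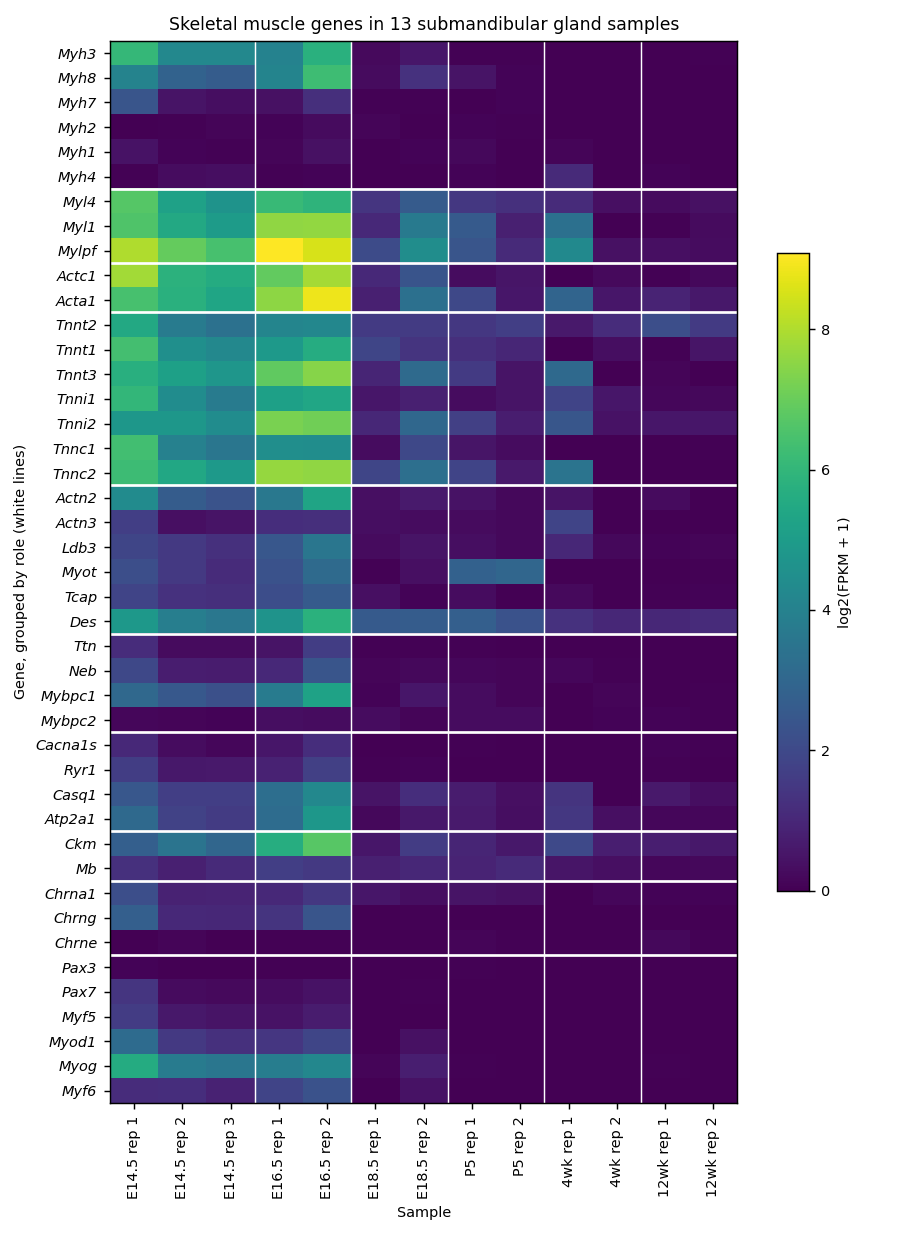
Heatmap of log2(FPKM + 1) for the 43 genes (rows, grouped by role between white lines) in the 13 samples (columns, ordered by time point). Bright cells are found in the 5 columns of E14.5 and E16.5, E14.5 replicate 1 is brighter than its replicates in most rows, and 4wk replicate 1 differs from its replicate in the rows of Myh4, Myl1, Mylpf, Acta1, Tnnt3 and Tnnc2.

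Myosin heavy chains, the motors of the thick filament, were those of developing fibres. Myh3, the embryonic chain (chr11:66891802-66915793 of mm9, plus strand), was at 65.0, 17.8 and 18.1 FPKM in the E14.5 samples, 15.5 and 52.9 FPKM in the E16.5 samples, and 0.164 and 0.468 FPKM in the E18.5 samples. From P5 on it did not exceed 0.0380 FPKM. Its E14.5 and E16.5 samples overlapped, with a difference of 0.06 ± 0.54 (SE), and it then fell by 4.51 ± 0.59 on the log2 scale to E18.5. Myh8, the perinatal chain (chr11:67090626-67122136, plus strand), was at 15.7, 6.28 and 5.23 FPKM at E14.5, at 16.1 and 75.6 FPKM at E16.5, and at 0.197 and 1.48 FPKM at E18.5. It was higher at E16.5 than at E14.5 by 1.99 ± 0.57, although its lower E16.5 sample barely passed E14.5 replicate 1, and it then fell by 4.40 ± 0.62. The slow chain Myh7 was at 4.27, 0.397 and 0.266 FPKM at E14.5 and at 0.323 and 1.32 FPKM at E16.5, and E14.5 replicate 1 stood above the 12 other samples. The adult fast chains Myh2 and Myh1 did not exceed 0.203 and 0.362 FPKM in any sample. Myh4, the fastest adult chain, was at 1.14 FPKM (40 reads) in 4wk replicate 1, at 0 in its replicate and at most 0.254 FPKM in the other samples. The genes of the chains other than Myh7 lie side by side on chromosome 11 and are near-identical in parts, and reads that mapped to several places were left out, so their levels are uncertain and may be too low.

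The mix of heavy chains shifted from embryonic to perinatal before the muscle signal was lost. Of the summed FPKM of the 6 heavy chain genes, Myh3 took 76.2, 71.7 and 75.4% at E14.5 (74.5% ± 2.38, SD, n = 3) and 48.2 and 40.6% at E16.5 (44.4% ± 5.36, SD, n = 2). Myh8 took 18.4, 25.3 and 21.8% at E14.5 and 50.2 and 58.0% at E16.5. The groups did not overlap in either share. In E14.5 replicate 1, which held the most muscle RNA of its time point, Myh7 took 5.00%, against 1.60 and 1.11% in its replicates. Later shares rest on few reads. At E18.5 replicate 2, with 404 reads on the family, Myh8 took 72.5% and Myh3 23.0%. In P5 replicate 1, with 203 reads, Myh8 took 56.7%, Myh1 19.5% and Myh3 5.51%. P5 replicate 2, with 46 reads, differed, with Myh8 at 30.1%, Myh7 at 28.4% and Myh3 at 15.4%. These 46 reads, the 52 of E18.5 replicate 1, the 43 of 4wk replicate 1 and the 13 or fewer of each remaining adult library give no more than a rough mix.

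**Figure D3:**
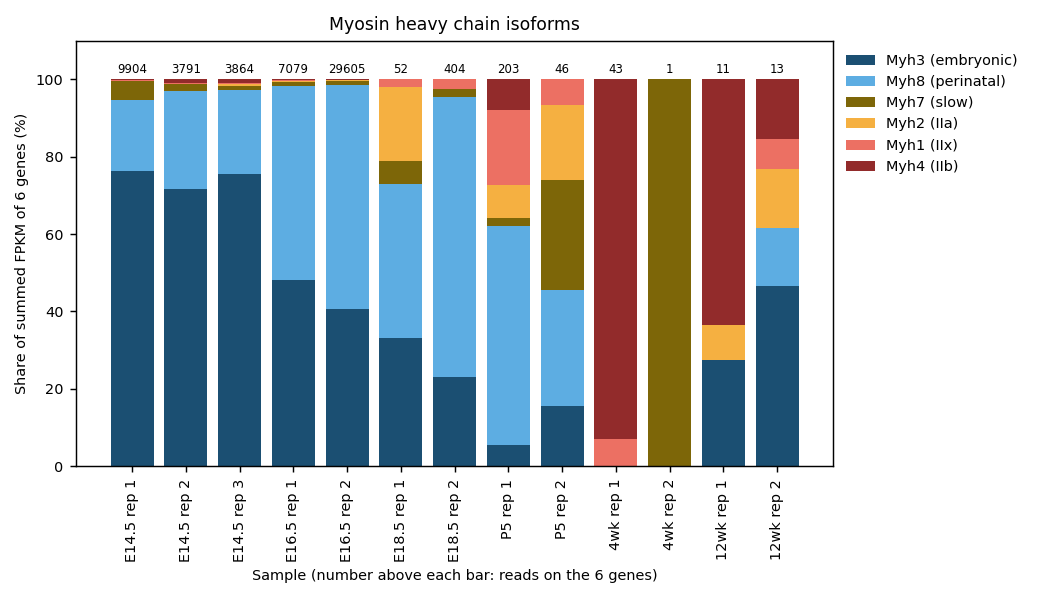
Stacked bars of the share (percent) of each of 6 myosin heavy chain genes in their summed FPKM, 1 bar per sample, with the number of reads on the 6 genes above each bar. Myh3 makes up 71.7 to 76.2% at E14.5 and 40.6 to 48.2% at E16.5, and bars from E18.5 on stand on between 1 and 404 reads.

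The myosin light chains, which stiffen and tune the myosin head, were among the most abundant of the 43. Mylpf, the fast regulatory chain (chr7:134355122-134357812, plus strand), was at 256, 123 and 85.7 FPKM at E14.5, at 542 and 372 FPKM at E16.5 and at 3.21 and 20.7 FPKM at E18.5. It then was at 4.28 and 1.13 FPKM at P5, 18.7 and 0.333 FPKM at 4wk, and 0.303 and 0.233 FPKM at 12wk. The E16.5 samples lay above all others, yet with the spread at E14.5 their difference of 1.68 ± 0.97 did not pass, while it fell by 5.56 ± 1.07 to E18.5, which did. Myl1, the fast essential chain (chr1:66970869-66991978, minus strand), was at 94.4, 44.0 and 31.1 FPKM at E14.5, at 190.4 and 197 FPKM at E16.5, and at 1.09 and 12.6 FPKM at E18.5. Myl4, the embryonic and atrial essential chain, was at 102, 35.4 and 24.6 FPKM at E14.5, at 68.3 and 59.6 FPKM at E16.5 and at 1.63 and 5.13 FPKM at E18.5. These fell by 5.19 ± 1.05 and 4.01 ± 0.55 from E16.5 to E18.5. Of the summed FPKM of both essential chains, Myl1 took 48.0, 55.4 and 55.8% at E14.5 and 73.6 and 76.8% at E16.5, with no overlap.

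Both sarcomeric actins, the backbone of the thin filament, fell to E18.5, and their order was exchanged between E14.5 and E16.5. Actc1, the cardiac actin that embryonic skeletal fibres also use (chr2:113873018-113879284, minus strand), was at 224, 56.4 and 46.9 FPKM at E14.5, at 118 and 232 FPKM at E16.5, and at 1.08 and 4.12 FPKM at E18.5. Acta1, the adult skeletal actin (chr8:126415669-126418651, minus strand), was at 85.1, 53.5 and 39.1 FPKM at E14.5, at 186 and 466 FPKM at E16.5, and at 0.734 and 9.26 FPKM at E18.5. Acta1 was higher at E16.5 by 2.37 ± 0.81 and its groups did not overlap, whereas E14.5 and E16.5 overlapped for Actc1. From E16.5 to E18.5, Acta1 fell by 6.13 ± 0.88, the most among the 38 genes, and Actc1 fell by 5.67 ± 0.63. In percent of both actins, Acta1 took 27.6, 48.7 and 45.5 at E14.5 and 61.2 and 66.8 at E16.5. Acta1 kept 2.91 and 0.453 FPKM at P5, 6.57 and 0.480 FPKM at 4wk, and 0.875 and 0.493 FPKM at 12wk, where Actc1 did not exceed 0.444 FPKM.

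All 7 troponins, the calcium switch of the thin filament, fell between E16.5 and E18.5, and the fast form of each subunit had a larger share in the E16.5 samples than in those of E14.5. The fast troponin I gene Tnni2 was at 27.4, 26.8 and 20.6 FPKM at E14.5, at 152 and 137 FPKM at E16.5 and at 1.04 and 7.21 FPKM at E18.5. Its slow counterpart Tnni1 was at 63.7, 20.5 and 12.8 FPKM at E14.5, at 35.1 and 40.1 FPKM at E16.5 and at 0.466 and 0.747 FPKM at E18.5. Tnni2 was higher at E16.5 by 2.50 ± 0.59, and its E14.5 samples lay close together where those of Tnni1 did not. The share of Tnni1 in both was 70.0, 43.3 and 38.4% at E14.5 and 18.8 and 22.7% at E16.5. The fast calcium-binding subunit Tnnc2 was at 73.1, 42.7 and 29.0 FPKM at E14.5 and at 201 and 192 FPKM at E16.5, and its slow and cardiac counterpart Tnnc1 was at 80.5, 15.0 and 10.7 FPKM and at 21.4 and 21.0 FPKM. In share, Tnnc1 took 52.4, 26.0 and 27.0% at E14.5 and 9.60 and 9.88% at E16.5. Tnnc2 overlaps Ube2c, Tnnc1 overlaps Nisch and Tnnt3 overlaps Gm14492 on the opposite strand. It was not given whether reads were counted by strand. Among the troponin T genes, which tie the complex to tropomyosin, the fast Tnnt3 was at 51.6, 34.8 and 26.4 FPKM at E14.5 and at 117 and 172 FPKM at E16.5. The slow Tnnt1 was at 80.9, 22.2 and 18.0 FPKM and at 29.3 and 47.9 FPKM at these time points, with overlap. In share, Tnnt3 took 29.2, 49.8 and 49.1% at E14.5 and 71.8 and 72.5% at E16.5.

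Thus in troponin I, T and C, the actins and the essential light chains, the E16.5 samples did not overlap those of E14.5 in the share of the fast or adult form, and E14.5 replicate 1 had the lowest such share of all 5 samples in each. Leaving it out, the shares of Tnni1 were 43.3 and 38.4% at E14.5 and those of Tnnc1 26.0 and 27.0%, still above both E16.5 samples. The share of a gene within a family and sample does not depend on the scaling between samples.

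Tnnt2, the cardiac troponin T that embryonic skeletal fibres also make, fell by 2.61 ± 0.52 from E16.5 to E18.5 but kept reads in every later sample. It was at 44.2, 12.9 and 9.35 FPKM at E14.5, at 16.6 and 17.4 FPKM at E16.5, and at 1.93 and 1.97 FPKM at E18.5. Later it was at 1.75 and 2.20 FPKM at P5, 0.549 and 1.20 FPKM at 4wk and 3.55 and 1.91 FPKM at 12wk, the last from 97 and 68 reads. At 12wk only Tnnt2 and Des of the 43 genes reached 1 FPKM. Of the cardiomyocyte genes, Tnni3 was at 1.00 and 0.640 FPKM there, and Myh6, Myl7 and Nppa did not exceed 0.0553 FPKM.

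Z-disc and cytoskeletal genes ran at lower levels, and 5 of 6 fell from E16.5 to E18.5. Actn2, the alpha-actinin of all skeletal fibres, was at 19.8, 5.29 and 3.96 FPKM at E14.5, 11.5 and 38.8 FPKM at E16.5 and 0.290 and 0.589 FPKM at E18.5. Actn3, the alpha-actinin of fast fibres, was at 2.21, 0.287 and 0.389 FPKM at E14.5, at 1.30 and 1.36 FPKM at E16.5, and reached its highest level, 2.68 FPKM, in 4wk replicate 1. Ldb3, a Z-disc scaffold, was at 2.75, 1.84 and 1.42 FPKM at E14.5 and at 4.47 and 10.9 FPKM at E16.5, a difference of 1.45 ± 0.32, and fell by 2.64 ± 0.35 to E18.5. Tcap, which binds titin at the Z-disc, was at 2.63, 1.46 and 1.34 FPKM at E14.5, at 3.40 and 5.17 FPKM at E16.5, and at most 0.304 FPKM afterwards. Des, the intermediate filament desmin of all muscle types, was at 27.5, 13.9 and 11.2 FPKM at E14.5, at 24.1 and 54.6 FPKM at E16.5 and at 4.91 and 5.19 FPKM at E18.5. It then was at 5.70 and 3.90 FPKM at P5, 1.44 and 0.994 FPKM at 4wk and 1.00 and 1.15 FPKM at 12wk, so that its samples from E18.5 on were even between replicates, including those of 4wk. It fell by 1.38 ± 0.40 from P5 to 4wk, a step in which the median of all genes was -0.53, and after median-of-ratios rescaling the difference was -0.96 and no longer passed.

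Myot, the Z-disc protein myotilin, was the 1 gene of the 38 that was higher at P5 than at E18.5, and with all samples no other rose in a later step. In other settings Ckm was higher at 4wk than at P5 by 1.03 after median-of-ratios rescaling, and Tnni1 by 1.60 with a pseudocount of 0.1. Without 4wk replicate 2, which leaves 1 sample at 4wk, larger differences from P5 to 4wk were seen. They were 2.55 in Mylpf, 2.24 in Tnnc2, 2.09 in Tnnt3, 1.65 in Actn3, 1.47 in Tnni1, 1.26 in Ckm and 1.06 in Myh4. Myot was at 3.57, 1.82 and 1.17 FPKM at E14.5, 3.85 and 7.75 FPKM at E16.5, and 0.0261 and 0.307 FPKM at E18.5. At P5 it was at 6.00 and 6.93 FPKM, from 640 and 645 reads, and in the 4 adult samples it was at 0, 0, 0 and 0.0319 FPKM. Both P5 samples lay above every E14.5 sample and within the range of E16.5. The differences were 2.69 ± 0.33 from E18.5 to P5 and -2.90 ± 0.33 from P5 to 4wk, and both passed in every alternative tried. At P5 the other Z-disc genes Actn2, Actn3, Ldb3 and Tcap were at 0 to 0.368 FPKM, and the P5 samples, whose muscle sums differed by 1.77 times, were close together in Myot. Which cells carried it was not tested.

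The giant and myosin-binding proteins of the filaments gave fewer FPKM, which are per length, but many reads. Ttn, the titin spring that spans the sarcomere from Z-disc to M-line, was at 1.25, 0.194 and 0.210 FPKM at E14.5 (2513, 513 and 587 reads), at 0.404 and 2.10 FPKM at E16.5 and at 0.0293 and 0.0266 FPKM at E18.5. Neb, the nebulin ruler of the thin filament, was at 2.88, 0.638 and 0.599 FPKM at E14.5, at 1.07 and 4.30 FPKM at E16.5 and at 0.0949 and 0.149 FPKM at E18.5. Both had E14.5 replicate 1 and E16.5 replicate 2 well above the other embryonic samples, and they fell by 1.02 ± 0.35 and 1.56 ± 0.44 from E16.5 to E18.5 on a scale that compresses low values. Without E16.5 replicate 2 these differences were -0.45 and -0.88 and no longer passed. Mybpc1, the slow myosin-binding protein C, was at 7.43, 4.65 and 3.60 FPKM at E14.5, at 12.6 and 37.0 FPKM at E16.5, and at 0.0579 and 0.465 FPKM at E18.5. It rose by 1.92 ± 0.37 and fell by 4.19 ± 0.40 in these steps, without overlap in either. The fast form Mybpc2 lay between 0 and 0.266 FPKM in the 13 samples.

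Genes of excitation-contraction coupling, which pass the electrical signal to calcium release and take calcium back up, peaked at E16.5 where they changed. Casq1, the calcium store of the reticulum, was at 4.59, 2.23 and 2.24 FPKM at E14.5, at 8.77 and 18.1 FPKM at E16.5 and at 0.400 and 1.30 FPKM at E18.5. Atp2a1, the fast calcium pump, was at 7.67, 2.48 and 2.00 FPKM at E14.5, at 8.38 and 27.1 FPKM at E16.5 and at 0.134 and 0.511 FPKM at E18.5. They rose by 1.82 ± 0.42 and 1.85 ± 0.52 to E16.5 and fell by 2.93 ± 0.46 and 3.63 ± 0.56 to E18.5. Ryr1, the calcium release channel, was at 2.16, 0.483 and 0.543 FPKM at E14.5 and at 0.835 and 2.26 FPKM at E16.5, and Cacna1s, its voltage sensor, at 1.06, 0.246 and 0.120 FPKM and at 0.471 and 1.27 FPKM. Their E14.5 and E16.5 samples overlapped. At E18.5 Ryr1 had fallen by 1.22 ± 0.34, to 0.0450 and 0.0542 FPKM, and Cacna1s was at 0 reads in both samples. Atp2a1 overlaps Rabep2 on the opposite strand.

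Ckm, the muscle creatine kinase that buffers ATP, showed the greatest rise of the 38 genes between E14.5 and E16.5. It was at 5.79, 10.4 and 6.90 FPKM at E14.5, where E14.5 replicate 1 was the lowest of the 3, at 49.2 and 105 FPKM at E16.5, and at 0.448 and 2.05 FPKM at E18.5. The differences were 3.10 ± 0.43 and -5.12 ± 0.47. Mb, the oxygen store myoglobin, was flat in comparison, at 1.41, 0.724 and 1.14 FPKM at E14.5, 2.22 and 1.82 FPKM at E16.5, 0.737 and 1.01 FPKM at E18.5, and 0.860 and 1.14 FPKM at P5. Neither of its embryonic differences reached 1 on the log2 scale, and in the 4 adult samples it lay between 0.110 and 0.412 FPKM. Ckm overlaps A930016O22Rik and Mb overlaps Apol6 on the opposite strand.

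The acetylcholine receptor, which receives the nerve signal, exchanges its fetal gamma subunit for the epsilon subunit as junctions mature. Chrng, the gamma subunit, was at 5.75, 1.05 and 0.993 FPKM at E14.5, at 1.58 and 4.24 FPKM at E16.5, and at 0 and 0.0321 FPKM at E18.5. Chrne, the epsilon subunit, had at most 7 reads in any sample, of which its antisense neighbour 4930544D05Rik may hold some. Of both, Chrng took between 91.3 and 100% in the 5 samples of E14.5 and E16.5. The alpha subunit Chrna1, which both receptors share, was at 3.54, 0.849 and 0.857 FPKM at E14.5, at 1.09 and 1.76 FPKM at E16.5 and at 0.480 and 0.264 FPKM at E18.5, a difference of -0.81 ± 0.36 that did not pass.

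The myogenic factors were present at E14.5 and E16.5 and scarce from E18.5 on. Myog, which drives the fusion and differentiation of myoblasts (chr1:136186581-136189124, plus strand), was the highest at 47.3, 12.7 and 10.8 FPKM at E14.5, 13.4 and 17.4 FPKM at E16.5, and 0.0779 and 0.708 FPKM at E18.5. Myod1, which commits cells to the lineage, was at 8.06, 1.85 and 1.39 FPKM at E14.5, at 1.73 and 2.70 FPKM at E16.5 and at 0 and 0.316 FPKM at E18.5. Both overlapped between E14.5 and E16.5 and fell by 3.59 ± 0.52 and 1.47 ± 0.48 to E18.5. Myf5, the earliest of the 4, was at 2.07, 0.511 and 0.395 FPKM at E14.5 and at 0.357 and 0.605 FPKM at E16.5, and Pax7, the marker of satellite cells, at 1.67, 0.203 and 0.166 FPKM and at 0.226 and 0.345 FPKM. In both, E14.5 replicate 1 was above the 12 other samples. Myf6, the factor of the most mature fibres, was the exception in its direction. It was at 1.21, 1.30 and 0.809 FPKM at E14.5, 2.65 and 3.91 FPKM at E16.5, and 0 and 0.370 FPKM at E18.5, with differences of 1.02 ± 0.18 and -1.85 ± 0.20. Pax3, the factor of migrating precursors, had 5 reads or fewer in every sample. From P5 on, Myf5, Myod1, Myf6 and Pax7 were at 0 reads in all 6 samples, and Myog had at most 3.

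**Figure D4:**
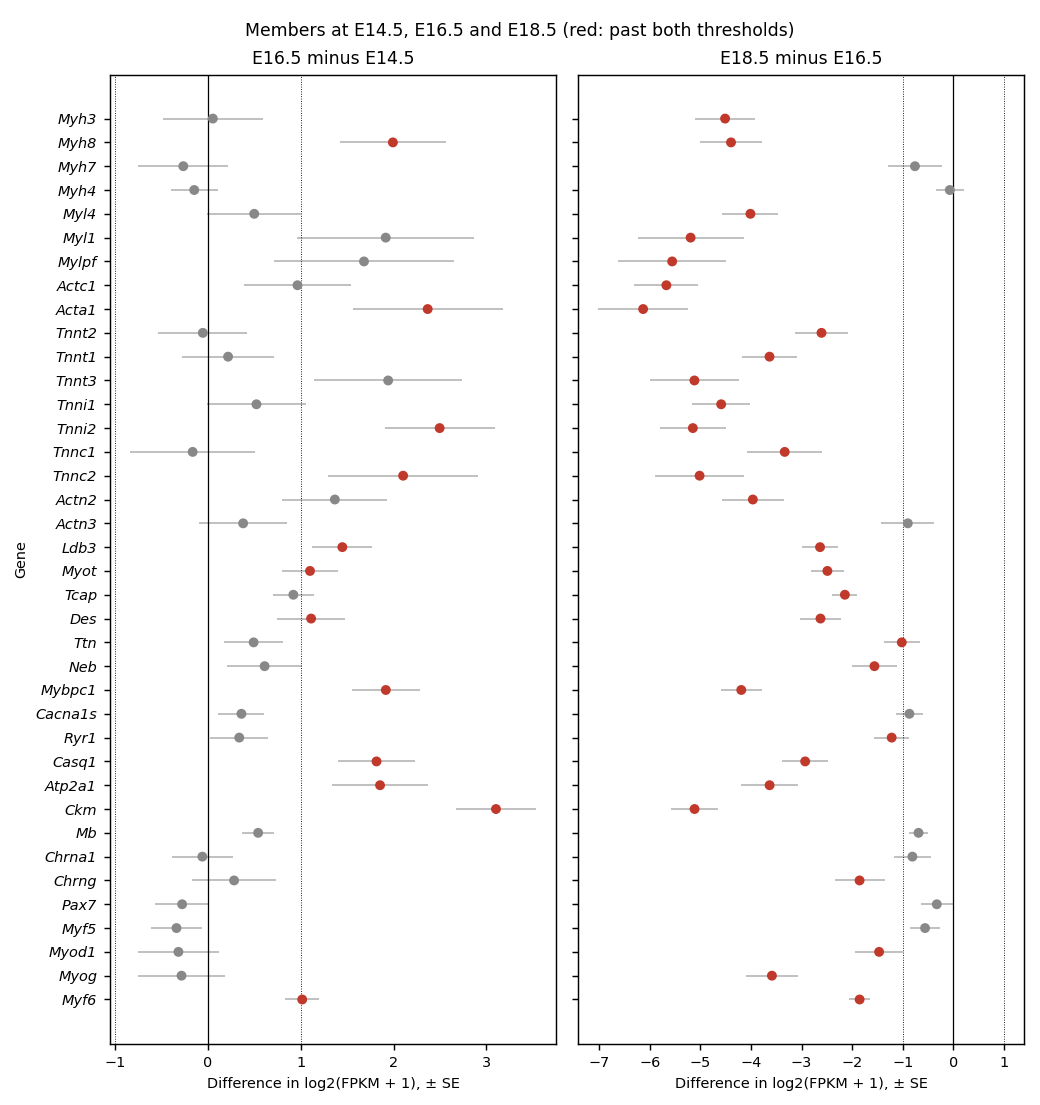
Difference in log2(FPKM + 1) of the 38 fitted genes, with SE bars, between E14.5 and E16.5 (left) and between E16.5 and E18.5 (right), with the genes in order of role and those past both thresholds in red. On the left 12 genes lie to the right of 1 in red, led by Ckm at 3.10, and on the right 30 lie to the left of -1 in red, down to Acta1 at -6.13.

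The rise to E16.5 depended on single libraries more than the fall to E18.5 did. Of the 12 genes that rose, Tnni2, Mybpc1 and Ckm passed in every alternative tried. Without E16.5 replicate 2 the count was 3, without E14.5 replicate 3 it was 6, and without E14.5 replicate 1 it was 18. In the last case Myl4, Actc1, Tnni1, Actn2, Tcap and Neb were added. Of the 30 that fell, 24 passed in every alternative tried, and the count lay between 24 and 30 when 1 library at a time was left out. The 6 others were Tnnc1, Ttn, Neb, Ryr1, Chrng and Myod1. Leaving out E18.5 replicate 2, the library with the higher sum, 25 were lower.

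Between embryonic replicates most of the muscle genes differed in the same direction. In E14.5 replicate 1, 35 of the 38 genes were higher than in replicate 2, 22 of them by at least 1 on the log2 scale, with a median of -1.09 for replicate 2 minus replicate 1, beside -0.02 for all genes. The exceptions were Ckm, Myf6 and Myh4, at 5.79, 1.21 and 0.0258 FPKM in replicate 1 and 10.4, 1.30 and 0.222 FPKM in replicate 2. The widest differences from replicate 2 were in Tnnc1, at 80.5 against 15.0 FPKM, and Actc1, at 224 against 56.4 FPKM. In E16.5 replicate 2, 32 of 38 were higher than in replicate 1, and 12 by at least 1. In E18.5 replicate 2, 30 of 38 were higher than in replicate 1, and 11 by at least 1, so that the sum was 3.67 times as high. At P5, 27 of 38 were lower in replicate 2 and 7 higher, at 4wk 20 were lower and 7 higher, and at 12wk 16 were lower and 15 higher, with a median of 0. No other difference between replicates in these genes was as wide as that at 4wk, where the sum was 11.7 times as high in replicate 1.

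**Figure D5:**
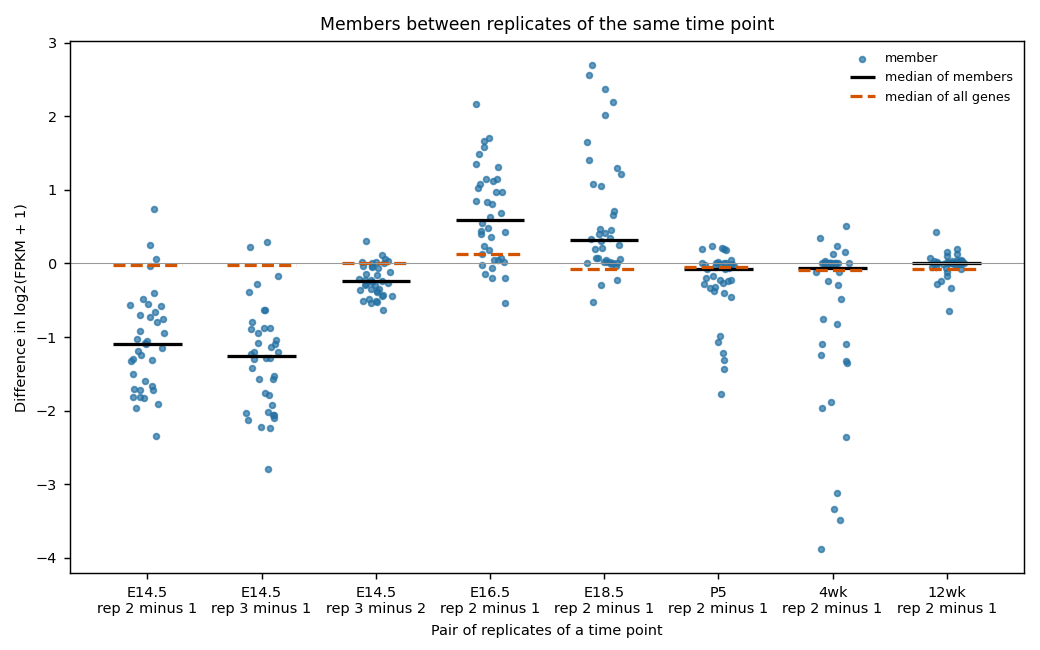
Differences in log2(FPKM + 1) between replicates of the same time point for the 38 fitted genes (points, spread sideways at random), with their median (black bar) and the median of all tested genes (dashed orange bar). The genes of E14.5 replicate 1 lie above those of replicates 2 and 3 (medians -1.09 and -1.25 for the other replicate minus replicate 1), those of E16.5 and E18.5 replicate 2 lie above replicate 1, and at 4wk a group of points reaches down to -3.88.

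The 5 highest genes of the 43 in 4wk replicate 1 were forms of fast or adult fibres. In it Mylpf was at 18.7 FPKM (82 reads), Tnnc2 at 10.2 FPKM (41 reads), Myl1 at 9.14 FPKM (59 reads), Tnnt3 at 7.67 FPKM (50 reads) and Acta1 at 6.57 FPKM (60 reads). In 4wk replicate 2 the same genes had 2, 0, 0, 0 and 6 reads. Tnni2, Ckm, Actn3, Atp2a1 and Casq1 were at 4.38, 3.04, 2.68, 1.75 and 1.56 FPKM in replicate 1, and Actn2 at 0.403 FPKM (7 reads). Of the slow and developmental genes, Tnni1 was present at 2.62 FPKM (17 reads), Myl4 at 1.17 FPKM (6 reads) and Tnnt2 at 0.549 FPKM (4 reads). Myh3, Myh8, Myh7, Actc1, Tnnt1, Tnnc1, Chrng and the 6 myogenic factors were at 0 reads. For these, a count of 3 reads would have been between 0.0839 FPKM for Myh8 and 0.734 FPKM for Tnnc1, but with the many values of 0 in this library their levels may have been above that. The embryonic samples differed from this mix, since Myh3 and Myh8 together made up most of their heavy chains. Because the 2 samples at 4wk disagree, the mean of the time point describes neither. With both, 0 of the 38 genes were higher than at P5, where 2.19% of all genes were higher.

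Over the whole span, 27 of the 38 genes were lower in the adult than in the embryonic time points, where 37.5% of all genes were lower. After median-of-ratios rescaling, which brings the median of all genes from -0.74 to -0.05, 24 of 37 were lower. That rescaling turned the calls over all genes from 791 higher and 5497 lower to 1961 higher and 2098 lower. At 12wk, 32 and 33 of the 43 genes still had reads, but only 8 and 10 had at least 10 reads, and only 2 in each sample reached 1 FPKM.

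The profile over the 13 samples was common to most of the 38 genes. Pearson's r of a gene with the mean profile of the 38, in which it is itself included, was highest for Actn2 at 0.993 and lowest for Myh4 at -0.0044, Myot at 0.607, Actn3 at 0.671, Pax7 at 0.773 and Mb at 0.792. Outside the 43, the 10 genes with the most similar profile had r between 0.981 and 0.992. They were Klhl41, Chrnd, Synpo2l, Tmem8c, Ank1, 1110059M19Rik, Myom2, Hfe2, Itgb1bp2 and Fitm1. Klhl41, a stabiliser of sarcomeric proteins, was at 10.7, 3.47 and 3.14 FPKM at E14.5 and at 6.49 and 11.5 FPKM at E16.5. Chrnd, the delta subunit of the acetylcholine receptor, was at 2.03, 0.851 and 0.732 FPKM and at 1.03 and 1.93 FPKM. These samples share depth and composition, and r over them is a description. With a pseudocount of 0.1 in place of 1, 4 of the 10 were retained.

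A further 105 genes of skeletal muscle were followed beside the 43, of which 86 entered the fit. Between E14.5 and E16.5, 21 were higher and 0 lower, where 4.17% of all genes were higher. Between E16.5 and E18.5, 58 were lower and 0 higher, where 1.85% of all were lower. Between E18.5 and P5, 3 were higher and 3 lower, where 2.07% of all genes were higher and 2.97% lower. Between P5 and 4wk, 4 were higher and 3 lower, where 2.19% of all were higher and 22.1% lower, and between 4wk and 12wk 1 was higher, where 2.68% of all were. The 3 with the highest mean do not mark skeletal muscle alone. Tpm2, a tropomyosin that smooth muscle also makes, was at 90.1 and 134 FPKM at E16.5 and at 39.2 and 37.8 FPKM at E18.5. Cox7a1 and Cox8b, subunits of cytochrome oxidase found in muscle and brown fat, were at 138 and 44.8 FPKM and at 203 and 35.4 FPKM at P5, beside Ucp1 at 311 and 59.2 FPKM. Of 10 smooth muscle and myoepithelial genes in the fit, 0 were lower and 3 higher at E18.5 than at E16.5. In this step 159 of all 14650 tested genes were higher and 1.85% were lower. Acta2, the smooth muscle actin, was at 104 and 144 FPKM at E16.5 and at 153 and 156 FPKM at E18.5, and Cnn1, calponin, rose from 2.98 and 4.14 FPKM to 22.6 and 29.1 FPKM.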

How the data were processed

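RNA from dissected glands was made into TruSeq libraries, and 50 bp reads were sequenced. The authors mapped reads to mm9 with TopHat2 2.0.13 and Bowtie2 2.2.6 and counted them on genes with featureCounts, and the submitters' processing notes also name DESeq2 1.10.1. The authors deposited FPKM per gene and sample, and reads mapping to several places were not counted. Median-of-ratios factors of these FPKM were between 0.617 and 1.38, as for values scaled to each sample's total, although the authors describe a further median normalization between samples, so rescaling by these factors was tried as an alternative. FPKM steps were whole multiples of 1 read (within 0.02 reads) for 100% of the 20268 genes above 0, which gave the reads. The fit took log2(FPKM + 1) of genes that reached 1 FPKM in any sample, with limma 3.58.1 in R 4.3.3, in a single fit of 6 time points with Benjamini-Hochberg adjustment. The fit was also run on simulated data with the same spread for every gene and no discordant library. That run does not show how the fit performs on these samples. Replicates are separate samples, which were pools in the embryos. GENCODE annotation of mm9 gave the positions of genes. The genes and all lists were chosen with earlier results of these data known. The text names the 43 genes, up to 3 genes of each other list with the highest mean FPKM, and the 10 genes closest in profile. Alternatives were another pseudocount, filter, scaling, variance model, threshold and choice of samples, and the replicate number as a block. Myh6, Myl7, Nppa and the overlapping genes were named after their values were seen. Python 3.11.15, numpy 2.4.6, pandas 2.3.3 and matplotlib 3.10.9 were used for all else. Counts were not modelled.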

Additional observations from a re-analysis of the deposited data

How the results depend on the processing

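The number of genes called between E14.5 and E16.5, 12 with all samples, was 6 with a pseudocount of 0.1, 5 with the replicate block, 21 when E14.5 replicate 1 and 4wk replicate 1 were left out together (chosen after seeing the data), and 3 to 18 when 1 library at a time was left out. Between E16.5 and E18.5 the number called was 30 with all samples, where 430 of all 14650 genes were called. It was 32 with a pseudocount of 0.1, where 618 of all were, and 27 with only the time points compared, where 389 were. Between E18.5 and P5, 1 was called with all samples, where 738 of all genes were. This became 2 with a pseudocount of 0.1, where 1163 of all were, and 2 with only the time points compared, where 775 were. Without E14.5 replicate 1 it was also 2, where 757 of 14419 were. The added gene was Actc1, lower at P5 in each. Between P5 and 4wk, 2 became 7 with a pseudocount of 0.1 and 2 to 9 without 1 library, and between 4wk and 12wk 0 became 2 and 0 to 9, in both cases 9 without 4wk replicate 2. Between P5 and 4wk, the 2 called with all samples were both lower at 4wk, and of the 7 with a pseudocount of 0.1, 6 were lower and 1 higher. Without 4wk replicate 2, which leaves 1 sample at 4wk, Mylpf, Tnnc2, Tnnt3, Actn3, Tnni1, Ckm and Myh4 were instead higher than at P5. Their differences ran from 1.06 in Myh4 to 2.55 in Mylpf. In that fit the same genes were lower at 12wk than at 4wk, from -1.05 in Myh4 to -3.96 in Mylpf. Adult against embryo gave from 24 after rescaling, where 4059 of all 14601 genes were called, to 37 with a pseudocount of 0.1, where 8421 of 14650 were. Tnnc2 reversed between P5 and 4wk, from 0.50 to -1.24, without both E14.5 replicate 1 and 4wk replicate 1. Of all other differences of single genes, 81 gained a call, 96 lost it and 4816 did neither. Those 4816 can include differences without a call that changed sign. Replicate numbers did not pair the samples (mean correlation of deviations -0.016 over 30 pairs with the same number and 0.012 over 40 with different numbers), and the block changed no count except the first by over 1.5 times. With 2 samples at most time points, a library at odds with its replicate cannot be identified as the deviant, and values at or below 3 reads carry no order. The cause of these changes was not tested.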
